A study of Arabidopsis thaliana with 8 samples.

Results

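A set of 10 auxin genes linked to growth in the warm was followed across 8 RNA-seq libraries of Arabidopsis thaliana seedlings. The genes were chosen by locus identifier: *TAA1* (AT1G70560), *YUC2* (AT4G13260), *YUC8* (AT4G28720), *YUC9* (AT1G04180), *IAA19* (AT3G15540), *IAA29* (AT4G32280), *SAUR19* (AT5G18010), *SAUR20* (AT5G18020), *SAUR21* (AT5G18030) and *SAUR15* (AT4G38850), which is 10 of the 33602 genes counted. The study compared whole 6-day-old seedlings of *pwr-2*, a T-DNA insertion mutant of *POWERDRESS* (*PWR*) in the Col-0 background, with wild-type Col-0. Seedlings of both genotypes were raised at 23°C under short days (8 h of light, 16 h of dark), and some of each were moved to 27°C for 2 h. The 4 groups were 27°C *pwr-2*, 27°C Col-0, 23°C *pwr-2* and 23°C Col-0, each with 2 biological replicates of about 100 seedlings. A single mutant allele was sequenced, and a whole seedling mixes all organs, so fewer cells of a type and less RNA per cell cannot be told apart in these values.

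Indole-3-acetic acid, the main auxin, is made from tryptophan by an aminotransferase step (*TAA1* and its relatives) followed by a flavin monooxygenase step (the YUC family). Auxin then drives the destruction of Aux/IAA repressors such as *IAA19* and *IAA29* through the TIR1/AFB receptors, which frees auxin response factors (ARFs). Small auxin up RNA (SAUR) genes are early targets of this pathway, and the *SAUR19* family promotes cell expansion in the hypocotyl. In the warm, the transcription factor *PIF4* is known to raise auxin synthesis and auxin response in the shoot. *PWR* is a SANT-domain protein that works with the histone deacetylase HDA9.

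Promoter windows of 250 bases before the annotated transcript start were read from the RefSeq annotation of TAIR10.1 for all 10 genes. On that build *TAA1* lies at chr1:26604855-26607652 and *YUC9* at chr1:1104493-1106241, *YUC2* at chr4:7721487-7724070 (minus strand), *YUC8* at chr4:14192569-14194302, *IAA29* at chr4:15583332-15584903 and *SAUR15* at chr4:18126057-18126829, and *IAA19* at chr3:5264001-5265695, on the plus strand unless stated. PIF proteins bind the G-box CACGTG and the PBE-box CATGTG, which reads CACATG on the other strand. ARFs bind TGTCTC, which reads GAGACA on the other strand, and TGTCGG, which reads CCGACA. Both strands were searched. No 2 matches overlapped in a window. The *SAUR20* window, chr5:5966678-5966927 (minus strand), lay partly inside its gene record, which runs to 5966785, past the annotated transcript. The *SAUR19* window overlapped 1 other annotated gene. The G-box stood in 1 of the 10 windows, that of *IAA19*, and in 6.49% of 27443 promoter windows of the same length. The PBE-box stood in 7 of 10 windows and in 11.1% of all promoters. TGTCTC stood in 4 of 10 windows, against 10.9% of all promoters, and TGTCGG in 0 of 10, against 4.18%. The windows are not independent, as *SAUR19* and *SAUR21* are similar copies that share a PBE-box in like sequence. The 10 genes were also picked for their link to growth in the warm, so these shares are no test of enrichment. These matches describe the letters alone, and nothing here measured binding. The windows of 4 genes are shown because they span the patterns in the data: *IAA19* was higher in every *pwr-2* library, *SAUR15* had the lowest unadjusted p of the 10 between genotypes at 27°C, *YUC8* varied least, and *TAA1* was lower at 27°C in both genotypes. Capitals mark motif matches, and the windows lie at chr3:5263751-5264000 (plus strand, *IAA19*), chr4:18125807-18126056 (plus strand, *SAUR15*), chr4:14192319-14192568 (plus strand, *YUC8*) and chr1:26604605-26604854 (plus strand, *TAA1*).
IAA19: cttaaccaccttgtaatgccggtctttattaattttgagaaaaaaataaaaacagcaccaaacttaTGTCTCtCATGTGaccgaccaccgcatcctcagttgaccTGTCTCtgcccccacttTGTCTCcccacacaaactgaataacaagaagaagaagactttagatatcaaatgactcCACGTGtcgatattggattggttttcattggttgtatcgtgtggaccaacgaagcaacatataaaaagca
SAUR15: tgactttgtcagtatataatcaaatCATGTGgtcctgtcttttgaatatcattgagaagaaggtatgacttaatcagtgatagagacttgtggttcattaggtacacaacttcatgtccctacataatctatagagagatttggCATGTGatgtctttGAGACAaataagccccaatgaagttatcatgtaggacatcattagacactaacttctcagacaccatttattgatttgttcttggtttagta
YUC8: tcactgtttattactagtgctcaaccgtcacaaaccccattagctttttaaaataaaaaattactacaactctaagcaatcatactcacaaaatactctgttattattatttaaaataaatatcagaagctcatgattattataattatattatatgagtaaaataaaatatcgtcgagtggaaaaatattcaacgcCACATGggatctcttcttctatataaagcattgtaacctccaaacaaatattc
TAA1: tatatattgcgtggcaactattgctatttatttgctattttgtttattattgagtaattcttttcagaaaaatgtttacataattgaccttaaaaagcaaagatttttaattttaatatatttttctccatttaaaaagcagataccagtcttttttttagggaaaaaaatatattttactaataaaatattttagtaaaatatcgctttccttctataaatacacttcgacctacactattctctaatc
In the *IAA19* window the G-box lay 70 to 65 bases before the start, with 1 PBE-box and 3 TGTCTC matches further upstream. The *SAUR15* window held 2 PBE-boxes and 1 GAGACA. The *YUC8* window held 1 CACATG, and the *TAA1* window held none of these motifs.

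*SAUR19*, *SAUR20* and *SAUR21* lie side by side on chromosome 5, at 5962773 to 5963405, 5966183 to 5966785 and 5968352 to 5969190, next to *SAUR22*, *SAUR23* and *SAUR24*. Their first 60 coding bases are shown because the assignment of reads among such similar copies bears on every count given for them. Capitals mark bases that differ from the commonest base among the 6 copies, and a tie was settled by the base of *SAUR19*. The first capital in the *SAUR21* line stands at such a tie, where its base was as common as the other.
SAUR19: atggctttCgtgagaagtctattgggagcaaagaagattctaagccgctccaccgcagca
SAUR20: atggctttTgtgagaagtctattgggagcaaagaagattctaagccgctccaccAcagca
SAUR21: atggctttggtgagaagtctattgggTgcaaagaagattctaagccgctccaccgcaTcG
Over their whole coding sequences the 6 copies were 87.7% to 95.2% identical in pairs. Every stretch of 90 bases, the read length, in the exons of the 10 genes was found once in the genome. Of the *SAUR19* stretches, 24.4% came within 2 mismatches of another stretch in the cluster region, as did 4.8% of those of *SAUR21* and 0.739% of those of *SAUR20*. The treatment of reads with several alignments and the strand setting are not given in the sources used here, so the split of counts among the *SAUR19* copies is uncertain. No other annotated gene overlapped any of the 10.

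The mutated gene was checked first. *PWR* had 11.9 and 20.1 CPM (counts scaled to a common library size by TMM) in 27°C *pwr-2*, against 43.1 and 81.7 CPM in 27°C Col-0. At 23°C it had 15.5 and 11.3 CPM in *pwr-2*, against 57.1 and 75.3 CPM in Col-0. Each of the 4 *pwr-2* values was under every Col-0 value, as labelled, with *PWR* reads remaining in the insertion line. Total counts ran from 7379650 to 15733741 per library, and 23°C Col-0 replicate 1 was the shallowest. Chloroplast and mitochondrial genes took 0.0374% to 6.77% of the counts. The share of 19936 genes that differed more than 2-fold between replicates was 12.4% in 27°C *pwr-2*, 20.6% in 27°C Col-0, 14.7% in 23°C *pwr-2* and 30.8% in 23°C Col-0. The 6 shoot markers were abundant in every library, at 32000 to 60200 CPM in sum. The 6 root markers summed to 23.6 and 15.0 CPM in 27°C *pwr-2*, against 63.7 and 73.3 CPM in 27°C Col-0, and to 57.8 and 37.1 CPM in 23°C *pwr-2*, against 42.4 and 61.0 CPM in 23°C Col-0. Of the 42.4 CPM in 23°C Col-0 replicate 1, *NRT2.1* alone gave 22.4 CPM, against 0.0618 CPM in replicate 2. The 7 seed storage markers summed to 96.1 and 10.9 CPM in 27°C *pwr-2*, 85.3 and 107.3 CPM in 27°C Col-0, 341.2 and 2.93 CPM in 23°C *pwr-2*, and 510.9 and 319.7 CPM in 23°C Col-0.

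The 10 genes spanned a wide range of levels. Per kilobase of gene length, the mean over the 8 libraries was 28.8 CPM per kb for *SAUR20*, 17.5 CPM per kb for *SAUR21*, 10.1 CPM per kb for *TAA1*, 7.19 CPM per kb for *SAUR15* and 2.87 CPM per kb for *IAA19*. Below these came *YUC2* (2.19 CPM per kb), *YUC8* (1.60 CPM per kb), *IAA29* (0.98 CPM per kb), *SAUR19* (0.886 CPM per kb) and *YUC9* (0.437 CPM per kb). The ranges of all neighbours in this order overlapped. *IAA29*, *SAUR19* and *YUC9* were near the limit of detection, with 1 to 24, 1 to 18 and 2 to 17 counts per library. The ratio of the highest to the lowest library was 1.71 for *YUC8* and 2.31 for *TAA1*, and it reached 8.16 for *SAUR20* and 22.3 for *IAA29*.

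**Figure D1:**
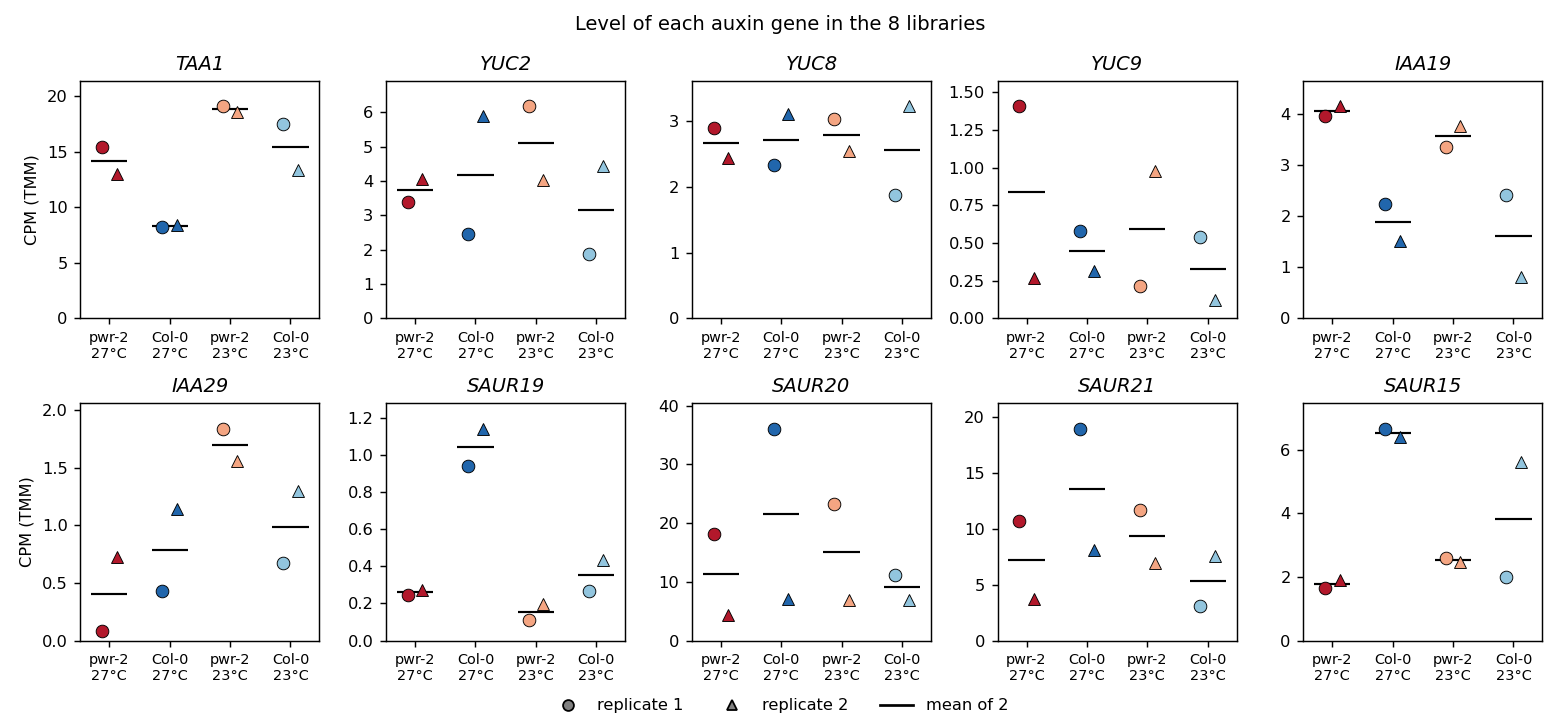
Level of each of the 10 auxin genes in CPM scaled by TMM (vertical axes, 1 panel per gene, each from 0) in 27°C *pwr-2*, 27°C Col-0, 23°C *pwr-2* and 23°C Col-0, with circles for replicate 1, triangles for replicate 2 and lines for the mean of 2. *IAA19* is higher in all *pwr-2* libraries (3.36 to 4.15 CPM) than in all Col-0 libraries (0.804 to 2.42 CPM), and *YUC8* stays between 1.88 and 3.22 CPM throughout.

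Among the auxin synthesis genes, *TAA1* was lower at 27°C than at 23°C in both genotypes and was higher in 27°C *pwr-2*, while *YUC8* was nearly level. *TAA1*, the aminotransferase that starts the pathway, had 15.4 and 13.0 CPM in 27°C *pwr-2*, against 8.26 and 8.36 CPM in 27°C Col-0. In *pwr-2* at 23°C it had 19.1 and 18.5 CPM, against 17.5 and 13.4 CPM in 23°C Col-0. Both Col-0 libraries at 27°C were the lowest of the 8, and the groups overlapped in none of the 4 pairwise comparisons. The *pwr-2* against Col-0 difference at 27°C was 0.75 ± 0.29 (log2, SE), with an adjusted p of 0.265 in edgeR's quasi-likelihood test, adjusted by Benjamini-Hochberg. In Col-0 the difference between 27°C and 23°C was -0.88 ± 0.25 (log2, SE; unadjusted p = 0.0191, adjusted p = 0.943 by edgeR), and in *pwr-2* it was -0.41 ± 0.16 (log2, SE; unadjusted p = 0.0485, adjusted p = 0.274 by edgeR). Averaged over the genotypes it was -0.64 ± 0.14 (log2, SE; unadjusted p = 0.00407), and edgeR's adjusted p was 0.998. *TAA1* had rank 51 of 19936 genes by this unadjusted p, in a comparison with 0% of genes past the adjusted threshold and 3.8% at an unadjusted p under 0.05 (1.8% lower).

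*YUC8*, a flavin monooxygenase gene known as a *PIF4* target in the warm, had 2.89 and 2.44 CPM in 27°C *pwr-2*, against 2.32 and 3.11 CPM in 27°C Col-0. At 23°C it had 3.03 and 2.54 CPM in *pwr-2*, against 1.88 and 3.22 CPM in Col-0. The groups overlapped in every comparison. The difference of *pwr-2* from Col-0 at 27°C was -0.03 ± 0.47 (log2, SE) and at 23°C 0.13 ± 0.51 (log2, SE). The difference of 27°C from 23°C was -0.06 ± 0.30 (log2, SE) in *pwr-2* and 0.10 ± 0.41 (log2, SE) in Col-0. *YUC8* counts of 14 to 52 per library limit what could be detected here.

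*YUC2*, another enzyme of the same step, had 3.39 and 4.06 CPM in 27°C *pwr-2*, against 2.47 and 5.89 CPM in 27°C Col-0. In *pwr-2* at 23°C it had 6.17 and 4.03 CPM, against 1.88 and 4.45 CPM in 23°C Col-0. The 2 Col-0 replicates lay further apart than the group means at both temperatures, and edgeR's quasi-likelihood test gave adjusted p-values from 0.555 to 0.976 (Benjamini-Hochberg) for *YUC2* in the 4 pairwise comparisons. *YUC9* had 17 and 3 counts in 27°C *pwr-2*, against 8 and 5 in 27°C Col-0, and 2 and 15 in 23°C *pwr-2*, against 4 and 2 in 23°C Col-0. It passed the low-count filter for the comparison of temperatures in *pwr-2* but not for the other 3 pairwise comparisons. The *pwr-2* replicates of *YUC9* went opposite ways between 27°C and 23°C, at 2.06 and -1.40 on the log2 scale.

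Of the Aux/IAA repressor genes, *IAA19* was higher in *pwr-2* at both temperatures and *IAA29* had its lowest library in 27°C *pwr-2*. *IAA19*, a repressor with a role in hypocotyl bending and growth, had 3.97 and 4.15 CPM in 27°C *pwr-2*, against 2.25 and 1.52 CPM in 27°C Col-0. At 23°C it had 3.36 and 3.77 CPM in *pwr-2*, against 2.42 and 0.804 CPM in Col-0. It was the only one of the 10 genes with all 4 *pwr-2* libraries above all 4 Col-0 libraries, an order that 3.14% of 19936 genes shared in this direction and 3.38% in the other. The difference of *pwr-2* from Col-0 was 1.11 ± 0.46 (log2, SE) at 27°C and 1.34 ± 0.65 (log2, SE) at 23°C. The 23°C difference was 0.62 without 23°C Col-0 replicate 2 and 2.12 without 23°C Col-0 replicate 1. Averaged over the temperatures it was 1.22 ± 0.36 (log2, SE; unadjusted p = 0.0152), with an adjusted p of 0.214 in edgeR's quasi-likelihood test, adjusted by Benjamini-Hochberg, so it did not pass. *IAA19* differed little between temperatures, by 0.19 ± 0.26 (log2, SE) in *pwr-2* and 0.38 ± 0.52 (log2, SE) in Col-0.

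*IAA29*, known as a direct *PIF4* target, had 1 and 8 counts in 27°C *pwr-2*, against 6 and 18 counts in 27°C Col-0, and 17 and 24 counts in 23°C *pwr-2*, against 5 and 21 counts in 23°C Col-0. In CPM these were 0.0827 and 0.722 in 27°C *pwr-2*, against 0.435 and 1.14 in 27°C Col-0, and 1.84 and 1.56 in 23°C *pwr-2*, against 0.671 and 1.298 in 23°C Col-0. Within *pwr-2* the 27°C libraries lay below the 23°C libraries, and at 23°C the *pwr-2* libraries lay above the Col-0 libraries. Of the summed counts, 9 at 27°C against 41 at 23°C in *pwr-2*, the depth-scaled ratio was 0.233, with a 95% exact interval of 0.0996 to 0.487 that covers counting error only. The fitted difference in *pwr-2* was -2.10 ± 0.76 (log2, SE; unadjusted p = 0.0375), and the adjusted p was 0.247 in edgeR's quasi-likelihood test (Benjamini-Hochberg). In Col-0 it was -0.35 ± 0.56 (log2, SE). The difference in *pwr-2* ran from -3.91 without 27°C *pwr-2* replicate 2 to -1.48 without 23°C *pwr-2* replicate 1.

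At 27°C the 4 SAUR genes were lower in *pwr-2* than in Col-0 in both replicate pairs, and none passed the test. The share of all genes lower in both pairs was not counted. *SAUR19*, *SAUR20* and *SAUR21* are similar copies, so the 4 genes are not independent. *SAUR15*, an early auxin-response gene first described as SAUR-AC1, had 1.65 and 1.90 CPM in 27°C *pwr-2*, against 6.67 and 6.40 CPM in 27°C Col-0. In *pwr-2* at 23°C it had 2.60 and 2.47 CPM, against 2.01 and 5.63 CPM in 23°C Col-0. The groups were apart at 27°C and overlapped at 23°C. The difference at 27°C was -1.89 ± 0.42 (log2, SE; unadjusted p = 0.00346), rank 700 of 19324 genes, with an adjusted p of 0.0952 in edgeR's quasi-likelihood test (Benjamini-Hochberg). DESeq2 gave an adjusted p of 0.127 for *SAUR15*. At 23°C the difference was -0.47 ± 0.58 (log2, SE).

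*SAUR20*, a growth-promoting gene of the *SAUR19* family, had 18.1 and 4.42 CPM in 27°C *pwr-2*, against 36.1 and 7.03 CPM in 27°C Col-0. At 23°C it had 23.3 and 6.83 CPM in *pwr-2*, against 11.2 and 6.99 CPM in Col-0. Replicate 1 was higher than replicate 2 in every group, so the groups overlapped although both pairs at 27°C were lower in *pwr-2*, at -0.99 and -0.65 on the log2 scale. edgeR's blocked fit gave -0.86 ± 0.28 (log2, SE; unadjusted p = 0.0198, Benjamini-Hochberg adjusted p = 0.192). *SAUR21* had 10.7 and 3.70 CPM in 27°C *pwr-2*, against 18.9 and 8.11 CPM in 27°C Col-0, and 11.7 and 6.90 CPM in 23°C *pwr-2*, against 3.09 and 7.54 CPM in 23°C Col-0. Its difference at 27°C was -0.98 ± 0.30 (log2, SE; unadjusted p = 0.0167, Benjamini-Hochberg adjusted p = 0.179 in edgeR). With 1 library left out, the 27°C difference ran from -1.22 (without 27°C Col-0 replicate 2) to -0.36 (without 27°C Col-0 replicate 1) for *SAUR20*. For *SAUR21* it ran from -1.65 (without 27°C *pwr-2* replicate 1) to -0.44 (without 27°C Col-0 replicate 1). At 23°C, *SAUR20* gave 0.51 ± 0.39 (log2, SE) and *SAUR21* gave 0.84 ± 0.62 (log2, SE). Without 23°C Col-0 replicate 1 these turned to -0.15 for *SAUR20* and -0.30 for *SAUR21*.

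*SAUR19*, whose protein activates proton pumping at the plasma membrane, had 3 and 3 counts in 27°C *pwr-2*, against 13 and 18 counts in 27°C Col-0, and 1 and 3 counts in 23°C *pwr-2*, against 2 and 7 counts in 23°C Col-0. All 4 groups were low, and Col-0 at 27°C stood above the others. The depth-scaled ratio of summed counts at 27°C, 6 in *pwr-2* against 31 in Col-0, was 0.247, with a 95% exact interval of 0.0843 to 0.601 for counting error only. The fit gave an unadjusted p of 0.0385 and an adjusted p of 0.261 in edgeR's quasi-likelihood test (Benjamini-Hochberg). *SAUR19* did not pass the low-count filter at 23°C or in *pwr-2* alone. The 3 neighbours *SAUR22*, *SAUR23* and *SAUR24* differed at 27°C by -1.35 ± 0.75, -1.44 ± 0.62 and -0.36 ± 0.66 (log2, SE), none past the threshold. The root marker sums given above were also lower in 27°C *pwr-2*, and of the 6 root markers *CASP1*, a gene of the root endodermis, fell by 1.89 on the log2 scale (edgeR adjusted p = 0.0468). Their part in the SAUR values was not tested.

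Between genotypes, the median of the auxin genes was below 0 at 27°C and above 0 at 23°C. At 27°C, 9 of the 10 were tested and 2 were higher and 7 lower in *pwr-2*, with a median of -0.86 (log2), against -0.01 over all genes tested. At 23°C, 8 were tested and 7 were higher and 1 lower in *pwr-2*, with a median of 0.61, against -0.02 over all genes. Of those 7, *TAA1*, *IAA19* and *IAA29* were higher in both replicate pairs. *YUC2*, *YUC8*, *SAUR20* and *SAUR21* were higher in pair 1 (0.65 to 1.87, log2) and lower in pair 2 (-0.32 to -0.03). Pair 1 at 23°C holds Col-0 replicate 1, the shallowest library. Both comparisons had 0 of the auxin genes called by edgeR, where 1.05% of 19324 genes passed at 27°C and 0% of 19170 at 23°C. At an unadjusted p under 0.05, the count was 5 at 27°C (1 higher, 4 lower), where 16.8% of all genes reached it (8.68% higher, 8.17% lower), and 0 at 23°C, where 4.53% did. DESeq2 called 0 at either temperature, of 10 members given an adjusted p at 27°C and 7 at 23°C. It had 1 at an unadjusted p under 0.05 at 27°C and 0 at 23°C. The CPM of the 2 genotypes did not overlap for 4 of 10 genes at 27°C, with *TAA1* and *IAA19* above and *SAUR19* and *SAUR15* below, against 40.3% of all genes (20.1% above, 20.2% below). At 23°C they did not overlap for 4 of 10, with *TAA1*, *IAA19* and *IAA29* above and *SAUR19* below, against 27.2% of all genes (13.3% above, 13.9% below). The share at 27°C was close to that of all genes. The shoot and root markers, but not the seed markers, differed in the same directions as these medians at both temperatures. In the fits, the 6 shoot markers were all lower in *pwr-2* at 27°C, with a median of -0.30 (log2). All were higher at 23°C, with a median of 0.27, and edgeR called none of them. At 23°C every shoot marker was higher in replicate pair 1 (0.36 to 1.25, log2) and lower in pair 2 (-0.74 to -0.08). Of the 6 root markers 4 were tested at 27°C, all lower in *pwr-2* with a median of -1.62, and 5 at 23°C, 4 of them higher, with a median of 0.23. At 23°C *CASP1*, *CASP2*, *COBL9* and *EXPA7* were likewise higher in pair 1 (1.10 to 1.81, log2) and lower in pair 2 (-0.88 to -0.59). Of the 7 seed markers 5 were tested at each temperature, all lower in *pwr-2*, with medians of -3.33 at 27°C and -3.62 at 23°C. The part of these markers in the auxin gene medians was not tested.

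**Figure D2:**
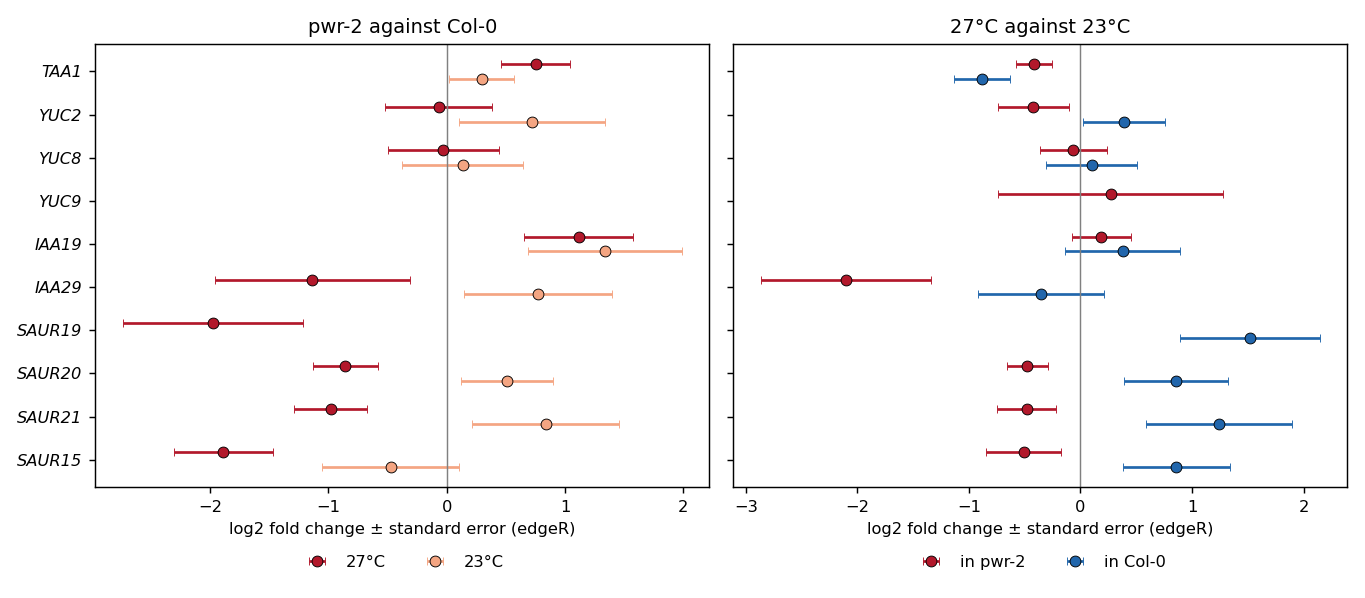
edgeR log2 fold change ± SE (horizontal axes) of the 10 genes for *pwr-2* against Col-0 at 27°C and 23°C (left) and for 27°C against 23°C in *pwr-2* and Col-0 (right), from 4 libraries each. Points missing for *YUC9* and *SAUR19* did not pass the low-count filter, *SAUR15* lies at -1.89 in *pwr-2* against Col-0 at 27°C, and no point passed the adjusted threshold.

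The shift to 27°C for 2 h was the other factor of the design. In *pwr-2*, 9 of the 10 genes were tested, 2 were higher and 7 lower at 27°C, and the median was -0.42 (log2), against 0.01 over all genes. In Col-0, 9 were tested, 7 were higher and 2 lower at 27°C, and the median was 0.39, against 0.00 over all genes. edgeR called 0 of them in either genotype, where 0.42% of 19050 genes passed in *pwr-2* and 0% of 19386 in Col-0. At an unadjusted p under 0.05 there were 3 in *pwr-2*, all lower (*TAA1*, *IAA29* and *SAUR20*), where 18.1% of all genes reached it and 7.49% were lower, and 1 in Col-0 (*TAA1*, lower), where 3.9% did and 2.25% were lower. DESeq2 called 0 in either genotype, of 8 members given an adjusted p in *pwr-2* and 6 in Col-0. It had 0 at an unadjusted p under 0.05 in *pwr-2* and 1 in Col-0. The CPM at 27°C and 23°C did not overlap for 5 of 10 genes in *pwr-2*, against 32.6% of all genes (17.5% above, 15.2% below), with *IAA19* and *SAUR19* above and *TAA1*, *IAA29* and *SAUR15* below. In Col-0 they did not overlap for 4 of 10, against 18.4% of all genes (9.26% above, 9.13% below), with *SAUR19*, *SAUR21* and *SAUR15* above and *TAA1* below. The shoot markers differed with the same signs as the members' medians. In *pwr-2* all 6 were lower at 27°C in the fit, with a median of -0.18 (log2) and 3 at an unadjusted p under 0.05. In the Col-0 fit all 6 were higher, with a median of 0.35. The Col-0 differences were 0.32 to 1.24 in replicate pair 1 but -0.18 to 0.07 in pair 2. *RBCS1A*, *LHCB1.3*, *LHCB2.1* and *GAPA* were lower at 27°C in pair 2. The 4 root markers tested in *pwr-2* were all lower at 27°C, each at an unadjusted p under 0.05, with a median of -1.38, and in Col-0 4 of the 5 tested were higher, with a median of 0.26. All seed markers tested were lower at 27°C, 2 in *pwr-2* with a median of -0.74 and 7 in Col-0 with a median of -1.265. edgeR called none of these markers in either genotype, and their part in the members' differences was not tested.

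In Col-0 the temperature differences of *SAUR20*, *SAUR21* and *SAUR15* came almost wholly from replicate pair 1. Replicate 1 stood furthest from replicate 2 at 27°C for *SAUR20* (36.1 against 7.03 CPM) and at 23°C for *SAUR15* (2.01 against 5.63 CPM). For *SAUR21* it stood apart at both temperatures, at 18.9 against 8.11 CPM (27°C) and 3.09 against 7.54 CPM (23°C). In replicate pair 1 they were 1.68 for *SAUR20*, 2.56 for *SAUR21* and 1.65 for *SAUR15* (log2, 27°C minus 23°C), and in pair 2 they were 0.01, 0.10 and 0.18 for the same genes. The fitted differences were 0.86 ± 0.46 for *SAUR20*, 1.24 ± 0.65 for *SAUR21* and 0.86 ± 0.48 for *SAUR15* (log2, SE). Without 23°C Col-0 replicate 1, the shallowest library, a fit of the other 7 libraries gave 0.17 for *SAUR20*, 0.13 for *SAUR21* and 0.21 for *SAUR15*. *SAUR19* differed alike in both Col-0 pairs, by 1.37 and 1.14, on counts of 13 and 18 (27°C) and of 2 and 7 (23°C). In *pwr-2* the pairs gave -0.36 and -0.61 for *SAUR20*, -0.13 and -0.87 for *SAUR21*, and -0.61 and -0.36 for *SAUR15*.

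**Figure D3:**
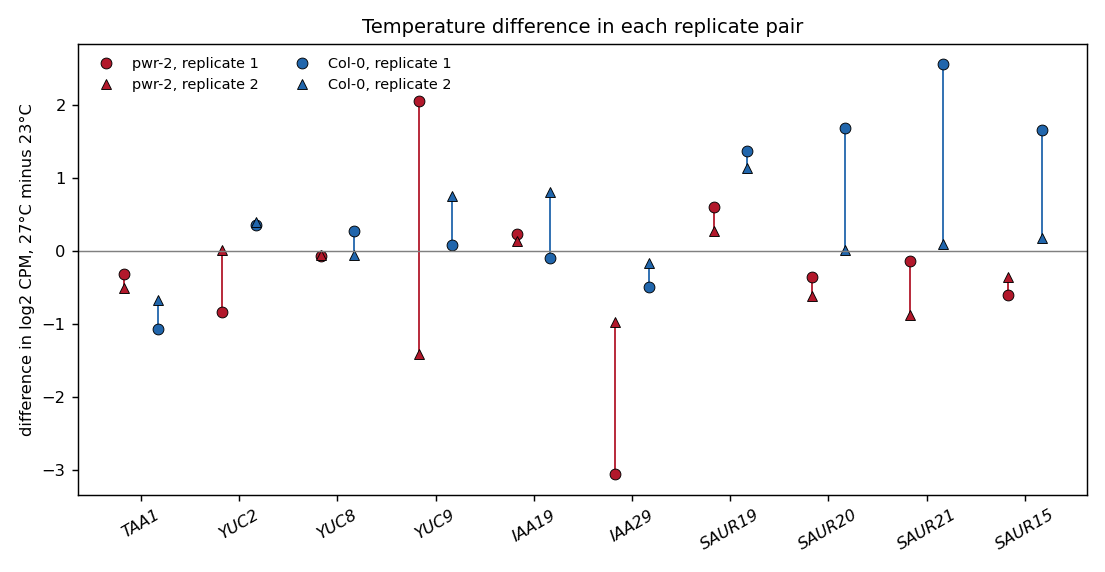
Difference in log2 CPM between 27°C and 23°C (vertical axis) of each of the 10 genes in replicate 1 (circles) and replicate 2 (triangles), for *pwr-2* and for Col-0, with a line joining the 2 replicates. *SAUR20*, *SAUR21* and *SAUR15* are at 1.65 to 2.56 in Col-0 replicate 1 and at 0.01 to 0.18 in Col-0 replicate 2, while both *pwr-2* replicates lie below 0.

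Whether the temperature difference itself differed between genotypes was tested as an interaction over all 8 libraries. The interaction, the temperature difference of the mutant less that of the wild type, was below 0 for 9 of the 10 genes, with a median of -0.84 (log2), against -0.01 over all 19936 genes, and *TAA1* was the exception at 0.46 ± 0.28 (log2, SE). The lowest values were -1.95 ± 1.10 for *IAA29*, -1.51 ± 0.90 for *SAUR21*, -1.34 ± 0.66 for *SAUR15* and -1.29 ± 0.58 for *SAUR20* (log2, SE). Without 23°C Col-0 replicate 1 the SAUR interactions were -0.65 for *SAUR21*, -0.74 for *SAUR15* and -0.68 for *SAUR20*, and without 23°C Col-0 replicate 2 they were -3.08, -2.20 and -2.06 in the same order. That of *IAA29* ran from -3.55 without 27°C *pwr-2* replicate 2 to -1.13 without 23°C *pwr-2* replicate 1. All 6 shoot markers also had interactions below 0, with a median of -0.56. Their temperature differences in Col-0 came mainly from replicate pair 1, as given above. Of the 5 root markers tested 4 were below 0, with a median of -1.74. Of the 7 seed markers 4 were below 0 and 3 above, with a median of -1.31. The part of these markers in the members' values was not tested. None of the 10 passed, with adjusted p-values of 0.948 to 0.985 in edgeR's quasi-likelihood test, adjusted by Benjamini-Hochberg, and none had an unadjusted p under 0.05. Of all genes 0% passed and 4.59% had an unadjusted p under 0.05, and DESeq2 also called 0 of the 10. The 4 pairwise comparisons share libraries with each other and with the interaction, so their medians are not independent. Averaged over temperatures, *pwr-2* against Col-0 gave 4 of the 10 genes an unadjusted p under 0.05, with *TAA1* and *IAA19* higher and *SAUR19* and *SAUR15* lower, where 17.4% of all genes reached it (7.99% higher, 9.44% lower) and 0% passed the adjusted threshold. *SAUR15* gave -1.22 ± 0.33 (log2, SE) and an adjusted p of 0.202 in that edgeR comparison, and its difference ran from -1.49 without 23°C Col-0 replicate 1 to -0.77 without 23°C Col-0 replicate 2.

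The rest of the pathway was taken from lists of its known genes and held no call in any of these comparisons. Of 10 other synthesis genes 3 were tested at 27°C, with a median of -0.42 (log2) in *pwr-2* against Col-0, and *TAR2*, a relative of *TAA1*, gave -0.89 ± 0.30 (log2, SE). Of 27 other Aux/IAA genes 19 were tested at 27°C, 7 higher and 12 lower in *pwr-2*, with a median of -0.18. Their extremes were *IAA30* at 2.35 ± 0.70 and *IAA4* at -1.13 ± 0.30 (log2, SE). *IAA30* was low, with 21 and 16 counts in 27°C *pwr-2* against 6 and 3 in 27°C Col-0. *IAA4* had 12.7 and 31.3 CPM in 27°C *pwr-2* against 21.0 and 88.0 CPM in 27°C Col-0, so the groups overlapped. The 6 receptor genes had a median of -0.20 at 27°C, the 5 response factors 0.03 and the 6 transport genes -0.48. Among the transport genes, the influx carrier *AUX1* gave -0.95 ± 0.36 (log2, SE).

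**Figure D4:**
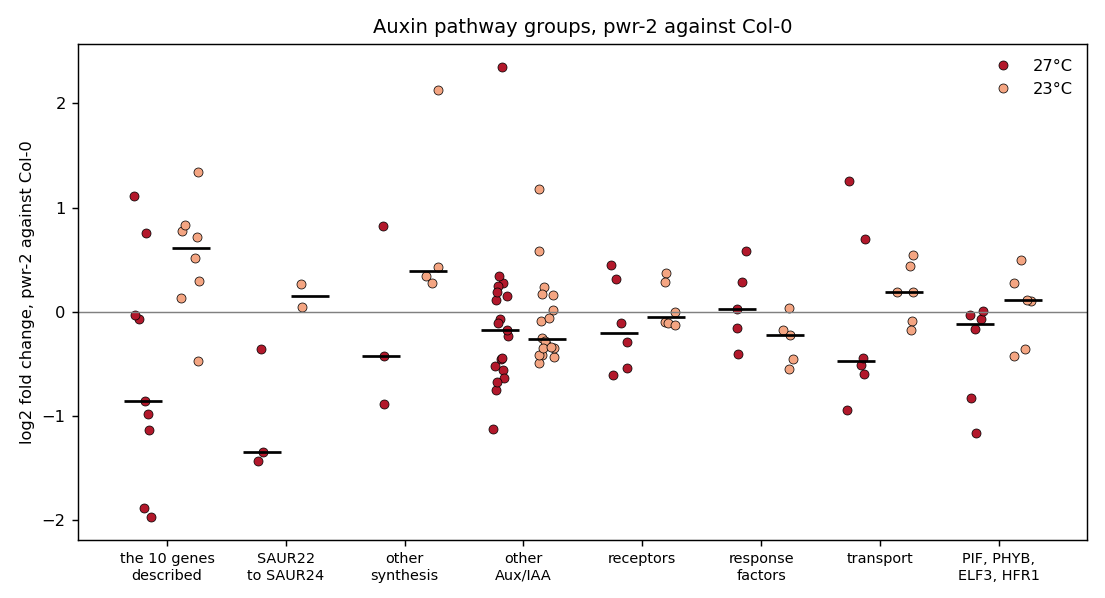
edgeR log2 fold change of *pwr-2* against Col-0 (vertical axis) at 27°C and at 23°C for the 10 genes described and for the other auxin gene lists, with a point per gene tested and a line at each median. The 10 genes have medians of -0.86 at 27°C and 0.61 at 23°C. The medians of the other lists lie closer to 0, except that of *SAUR22* to *SAUR24* at 27°C (-1.35).

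*PIF4*, the regulator placed above these genes, had 116.7 and 85.3 CPM in 27°C *pwr-2*, against 127.4 and 97.1 CPM in 27°C Col-0. In *pwr-2* at 23°C it had 138.0 and 106.6 CPM, against 79.4 and 91.9 CPM in 23°C Col-0. The genotypes overlapped at 27°C, where the difference was -0.17 ± 0.27 (log2, SE). At 23°C both *pwr-2* libraries lay above the Col-0 libraries, by 0.80 and 0.21 (log2) in pairs 1 and 2. Such an order held for 13.3% of all genes at 23°C, and 0% passed edgeR's adjusted threshold there. The related *PIF5* and *PIF7* gave -0.03 and -0.07 at 27°C, and *PHYB*, a thermosensing photoreceptor, gave 0.01 (log2). *HFR1*, an inhibitor of PIF proteins, gave -1.17 ± 0.35 (log2, SE), and *ELF3*, a repressor of *PIF4*, gave -0.83 ± 0.27 (log2, SE), neither past the threshold.

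Similarity of pattern was described by Pearson's r of log2 CPM over the 8 libraries, among 18718 genes with a mean of at least 1 CPM. The 8 points share genotype, temperature, depth and replicate effects, so r describes these libraries alone. Within the set, r was 0.86 for *YUC2* with *YUC8*, 0.82 for *SAUR19* with *SAUR15* and 0.75 for *SAUR20* with *SAUR21*. The r furthest from 0 was negative, at -0.96 for *TAA1* with *SAUR19*, and r was -0.78 for *IAA19* with *SAUR15* and -0.77 for *TAA1* with *SAUR15*. Over all genes, those most like each member had r from 0.93 to 0.99. These were the highest values in a search of 18718 genes over 8 points, and no chance level for such a search was computed. The nearest was AT5G59950 for *TAA1* (r = 0.98), *DMP2* for *YUC2* (0.95), *CYP94D2* for *YUC8* (0.98), *MES12* for *IAA19* (0.97), *NF-YB8* for *SAUR19* (0.97), AT2G17972 for *SAUR20* (0.99) and AT5G28850 for *SAUR15* (0.98).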

How the data were processed

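RNA from 8 libraries of whole *Arabidopsis thaliana* seedlings, 2 for each combination of genotype and temperature, was read as 90 bp paired-end reads. The authors filtered ribosomal reads, aligned to TAIR10 with TopHat2 2.1.0 and bowtie2 2.1.0 and counted fragments per gene with featureCounts 1.4.5. They deposited raw counts for each gene in a table per temperature, with gene length, which was used here only for CPM per kb. The deposited table of normalized values was not used. The strand setting, the treatment of multiply aligned reads and the annotation release are not given in the sources used here.

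Samples were grouped by the genotype, temperature and replicate number in their labels. Counts were tested for all genes with edgeR 4.0.16 in R 4.3.3 (quasi-likelihood test, TMM, filterByExpr, replicate number as a block, Benjamini-Hochberg adjusted p under 0.05). Each 2-group comparison used its own 4 libraries, and the interaction and the averaged comparisons used all 8. The SE is the fold change divided by the root of the F statistic. Log2 levels used a prior count of 2. Intervals for low counts are exact and cover counting error only. Total counts of 7379650 to 15733741 set the precision.

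The replicate block follows the study's own model, which has a term for replicate batches. Whether the numbers pair the samples was checked by correlating the replicate 1 minus replicate 2 difference of one group with that of another over 19936 genes. Pearson's r was 0.26 to 0.652 for the 6 pairs of groups. The genes named are the 10 described, *PWR*, every listed gene past the threshold, the neighbours *SAUR22* to *SAUR24*, upstream regulators and the genes most like each member in pattern. Other genes of the lists were named for their extreme values, after those were seen. The 10 genes and all lists were chosen with earlier results of these data known. Alternatives were DESeq2 1.42.0, its size factors in edgeR, no filter on low counts, at least 10 counts in every library, all 8 libraries fitted together, no replicate block, each library left out, and nuclear genes alone, which was added after the data were seen. Symbols, positions and sequences come from RefSeq's TAIR10.1 record. The deposited tables hold no coordinates. All 10 identifiers matched.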

Additional observations from a re-analysis of the deposited data

Results flagged for a closer look

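The difference of *pwr-2* from Col-0 in *IAA29* had opposite signs at the 2 temperatures in every replicate pair. It was -1.30 and -0.56 (log2) in pairs 1 and 2 at 27°C, and 1.27 and 0.24 in pairs 1 and 2 at 23°C. The interaction was -1.95 ± 1.10 (log2, SE), with an adjusted p of 0.948 in edgeR's quasi-likelihood test (Benjamini-Hochberg), on 1 to 24 counts per library. With 2 pairs per group, opposite signs carry no test of their own. The share of all genes with such signs was not counted.

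The difference between 27°C and 23°C in 3 SAUR genes had opposite signs in the 2 genotypes in every pair. For *SAUR20* it was -0.36 and -0.61 (log2) in *pwr-2* pairs 1 and 2, and 1.68 and 0.0096 in Col-0 pairs 1 and 2. For *SAUR21* it was -0.13 and -0.87 in *pwr-2*, and 2.56 and 0.10 in Col-0. For *SAUR15* it was -0.61 and -0.36 in *pwr-2*, and 1.65 and 0.18 in Col-0. The interactions were -1.29 ± 0.58 for *SAUR20*, -1.51 ± 0.90 for *SAUR21* and -1.34 ± 0.66 for *SAUR15* (log2, SE), each with an adjusted p of 0.948 by edgeR. Without 23°C Col-0 replicate 1 they were -0.68, -0.65 and -0.74 in the same order. Col-0 pair 2 lay close to 0 for all 3 genes, and with 2 pairs per group opposite signs carry no test of their own. Here too the share of all genes with such signs was not counted.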

How the results depend on the processing

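No member passed the adjusted threshold under any alternative run, so no call changed. Not every run tested all 10 genes. A floor of 10 counts in every library left 7 tested, and DESeq2 gave an adjusted p to 6 to 10. Fits with no replicate block also called 0 of the 8 to 10 members tested in each comparison, so the pairing changed no call on a member. Over all genes it did: 202 genes passed for *pwr-2* against Col-0 at 27°C and 80 for 27°C against 23°C in *pwr-2* with the block, against 0 in both without it. The same 2 comparisons gave 700 and 685 genes with no filter, 380 and 416 when every library had to hold at least 10 counts, 925 and 637 with DESeq2, 149 and 586 with nuclear genes alone, and 0 and 0 with all 8 libraries in one fit. DESeq2 called 48 genes at 23°C, 34 in Col-0, 25 for the interaction, 26 for the averaged temperature difference and 925 for the averaged genotype difference, where edgeR called 0 in each. edgeR gave 223 genes for the interaction without Col-0 23°C replicate 2 and 0 without any other single library. Of 409 values of the members under other settings, 407 kept their direction. The exceptions were both *YUC8*, 27°C against 23°C averaged over genotypes, at -0.002173 with DESeq2 size factors and -0.002665 with DESeq2, against 0.01 in the main analysis. Of 520 values with 1 library left out, 457 kept their direction and 63 did not. These fits used all remaining libraries, and the lone library of a group was assumed to vary like the others. The log2 ranges over the libraries left out are given here where the sign changed. For *pwr-2* against Col-0 at 27°C, they were -0.54 to 0.46 for *YUC2* and -0.29 to 0.26 for *YUC8*. For *pwr-2* against Col-0 at 23°C, they were -0.0087 to 1.52 for *YUC2*, -0.20 to 0.57 for *YUC8*, -0.15 to 1.21 for *SAUR20*, -0.30 to 2.13 for *SAUR21* and -1.12 to 0.33 for *SAUR15*. For 27°C against 23°C in *pwr-2*, they were -1.16 to 0.36 for *YUC2*, -0.35 to 0.25 for *YUC8*, -1.39 to 2.43 for *YUC9*, -0.20 to 0.62 for *IAA19* and -1.13 to 0.074 for *SAUR21*. For 27°C against 23°C in Col-0, they were -0.22 to 0.96 for *YUC2*, -0.26 to 0.54 for *YUC8* and -0.32 to 1.16 for *IAA19*. For the interaction, they were -0.60 to 0.19 for *YUC8*, -2.03 to 1.79 for *YUC9* and -0.99 to 0.50 for *IAA19*. For 27°C against 23°C averaged over genotypes, they were -0.39 to 0.37 for *YUC2*, -0.17 to 0.24 for *YUC8*, -0.37 to 1.53 for *YUC9*, -0.069 to 0.66 for *IAA19*, -0.17 to 0.53 for *SAUR20*, -0.19 to 1.04 for *SAUR21* and -0.16 to 0.59 for *SAUR15*. For *pwr-2* against Col-0 averaged over temperatures, they were -0.019 to 0.74 for *YUC2*, -0.11 to 0.27 for *YUC8*, -0.24 to 1.68 for *YUC9*, -0.93 to 0.35 for *IAA29*, -0.49 to 0.18 for *SAUR20* and -0.62 to 0.59 for *SAUR21*. With 2 replicates per group and low counts for *IAA29*, *SAUR19* and *YUC9*, depth and replicate number limit what can be detected, and a p above the threshold does not show equal levels. The cause of the sign changes was not tested.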
